A study of Mus musculus with 6 samples.

Results

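Genes of the RING and TRIM ubiquitin ligase families were examined in mouse oocytes at the germinal vesicle stage, which are still arrested before meiosis resumes. A gene was taken as a member when its symbol began with Rnf or Trim followed by a digit. This rule found 93 of the 10896 genes in the authors' deposited table, 60 of them Rnf and 33 Trim genes. RefSeq lists 151 protein-coding mouse genes named in this way, of which 92 are among these 93; Rnf219 carries another RefSeq name, Obi1, and the remaining RefSeq genes were not analysed here. The table's own annotation put 82 of the 93 genes (88.2%) under transition metal ion binding, the property of a zinc-holding RING, against 9.76% of all genes.

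The study compared 2 groups of 3 samples, each sample a pool of 50 oocytes from (C57BL x CBA) F1 females. In the in vitro group the oocytes had grown inside follicles that were freed with collagenase from ovaries of several females 10 to 12 days old, then cultured on membrane inserts in MEM-alpha with insulin, transferrin, selenium, 5% fetal bovine serum and follicle stimulating hormone; the labels used here give neither the length of culture nor how oocytes were freed from it. Oocytes of the in vivo group were released by needle from ovaries of adult females 7 to 11 weeks old, into M2 medium with dbcAMP, a cAMP analogue used to hold meiotic arrest. Culture and the age of the donor therefore differ together and cannot be told apart, and the labels do not say whether the 3 pools of a group came from separate animals, so the spread between pools may be in part technical. RNA from the pools was amplified as cDNA with a low-input SMARTer kit, from 10 ng of total RNA.

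A ubiquitin ligase chooses the protein to be tagged with ubiquitin, and RING ligases do so by holding a ubiquitin-loaded E2 enzyme beside the target. Most TRIM proteins carry a RING, B-box zinc fingers and a coiled coil in a row, followed by an end domain that differs among subfamilies. Members were taken by name, and whether each of them carries a RING was not checked here. A fully grown oocyte transcribes little, so its stored RNA has to serve maturation and the start of development, when many maternal proteins are removed through ubiquitin.

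The 4 promoter windows shown belong to 5 members, 250 bases before to 50 after the start in RefSeq on build GRCm38.p6. The windows of Trim75 and of Trim60 and Trim61 are shown because these neighbours on chromosome 8 were among the members with the most RNA. Those of Trim71 and Rnf187 are shown as examples of a gene that fell and a gene that rose in vitro. Capitals in the Trim75 and Trim60 windows mark TAATTG or TAATTA on either strand, the element bound by the oocyte homeobox factor NOBOX. In the Trim71 and Rnf187 windows capitals mark CG dinucleotides.
Trim75 (chr8:64987595-64987894, minus strand): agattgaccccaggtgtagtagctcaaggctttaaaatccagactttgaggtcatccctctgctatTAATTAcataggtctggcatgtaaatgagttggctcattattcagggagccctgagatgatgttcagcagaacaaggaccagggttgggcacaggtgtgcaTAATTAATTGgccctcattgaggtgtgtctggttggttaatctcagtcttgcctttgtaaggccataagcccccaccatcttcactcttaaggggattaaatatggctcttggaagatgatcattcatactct
Trim60 and Trim61 (chr8:65018639-65018938, minus strand): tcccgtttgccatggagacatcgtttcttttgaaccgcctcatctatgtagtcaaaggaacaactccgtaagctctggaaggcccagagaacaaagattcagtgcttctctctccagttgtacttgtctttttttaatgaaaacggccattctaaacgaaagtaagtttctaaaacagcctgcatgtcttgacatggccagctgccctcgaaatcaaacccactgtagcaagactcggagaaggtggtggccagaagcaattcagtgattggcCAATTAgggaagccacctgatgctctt
Trim71 (chr9:114564320-114564619, minus strand): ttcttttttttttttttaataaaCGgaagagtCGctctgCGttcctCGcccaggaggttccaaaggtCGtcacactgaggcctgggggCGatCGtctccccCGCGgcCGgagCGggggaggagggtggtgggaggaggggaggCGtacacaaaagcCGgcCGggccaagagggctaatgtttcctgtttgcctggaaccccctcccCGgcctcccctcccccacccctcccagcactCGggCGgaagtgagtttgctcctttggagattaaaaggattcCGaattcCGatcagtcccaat
Rnf187 (chr11:58938857-58939156, minus strand): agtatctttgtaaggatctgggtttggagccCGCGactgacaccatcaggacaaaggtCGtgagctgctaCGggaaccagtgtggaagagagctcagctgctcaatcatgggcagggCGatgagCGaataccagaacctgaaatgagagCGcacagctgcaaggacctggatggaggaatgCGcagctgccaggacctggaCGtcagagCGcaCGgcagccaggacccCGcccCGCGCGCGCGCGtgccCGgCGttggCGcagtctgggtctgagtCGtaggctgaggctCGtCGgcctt
The Trim75 window held no CG and 3 matches to the NOBOX element, which overlap in part, and the window shared by Trim60 and Trim61 held 8 CG and 1 match. The Trim71 and Rnf187 windows held 19 and 24 CG. Windows were found for 73 members. Of their 94 windows 11.7% held TAATTG or TAATTA, against 8.10% of the 11224 windows found for genes of the deposited table and 12.4% of all 32817 windows in RefSeq. An E-box, CANNTG, was in 71.3%, against 64.9% for genes of the deposited table and 72.3% in RefSeq, and TATAAA in 11.7%, against 7.36% and 13.6%. The median number of CG was 20 in the members' windows, 20 for genes of the deposited table and 7 in RefSeq as a whole. None of these shares was tested. For the calls, only the window with the most CG was taken for each gene, unlike in the medians above. The 7 genes called lower in vitro that had a window then held a median of 28 CG. The 5 called higher held 20, and the 61 that were not called held 21. These medians depend on the window taken. Among genes called lower, windows held 14 to 28 CG in Rnf6, 27 to 39 in Rnf214 and 3 to 10 in Rnf43. In Trim13, called higher, they held 1 and 18. These matches describe letters in a window and are not sites of binding.

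Levels were read as normalised reads per kilobase of gene length, from the group means of the authors' deposited table. By this measure Trim61 stood far above the other members, with 8388 in vitro and 7501 in vivo, at the 99.8th percentile of all genes. It alone made up 29.3% of the members' summed level per kilobase in vitro and 26.6% in vivo in the authors' deposited table. Next came Rnf8, which marks histones at DNA breaks, with 2148 and 2029 normalised reads per kilobase in vitro and in vivo in the authors' deposited table. Trim75 had 1349 and 1712, Rnf4, a ligase that recognises SUMO-tagged proteins, 1516 and 1537, and Rnf185, an endoplasmic reticulum ligase, 1447 and 1505, on the same scale of the authors' deposited table. These 4 members lie closer to one another than to Trim61, and their order cannot be set against a spread between samples because reads per library were not recovered at these levels. None of these 5 genes was called different between the groups. Trim60 lies between Trim75 and Trim61 and shares its start with Trim61 in RefSeq, so reads of these 2 genes may have been split between them; it had 748 and 747 normalised reads per kilobase in the authors' deposited table.

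Across the family the levels spanned a wide range. The mean over both groups ran from 8.28 to 17156 normalised reads in the authors' deposited table, was at least 1000 in 16 members and under 50 in 18. No member was listed at 0. The members' means summed to 1.10% of the table in vitro and 1.13% in vivo. Levels of the 93 genes kept nearly the same order in both groups, with a Spearman correlation of 0.96 across genes (0.97 over all genes), given as a description since both groups share gene length and base composition.

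A gene was called different when its PPEE in the authors' deposited table, read as the posterior probability that the groups do not differ, was below 0.05; a PPEE is not a p-value. By this rule 6 members rose in vitro and 8 fell, or 15.1% of members, the same share as the 15.1% of all genes. All genes were called higher in 6.75% and lower in 8.31%. The members' share is at the background. At a PPEE below 0.01, 4 members were higher and 7 lower, against 4.78% and 6.53% of all genes. The median log2 ratio of in vitro over in vivo was 0.03 for members and 0.02 for all genes in the authors' deposited table, and 65 members (69.9%) differed by less than 1.5-fold, against 70.3% of all genes. Among Rnf genes 2 rose and 6 fell of 60, and among Trim genes 4 rose and 2 fell of 33; the difference between the 2 families was not tested. The 14 called members had a median change of 1.62-fold. In bulk samples such as these, fewer cells of a kind and less RNA per cell cannot be told apart.

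**Figure D1:**
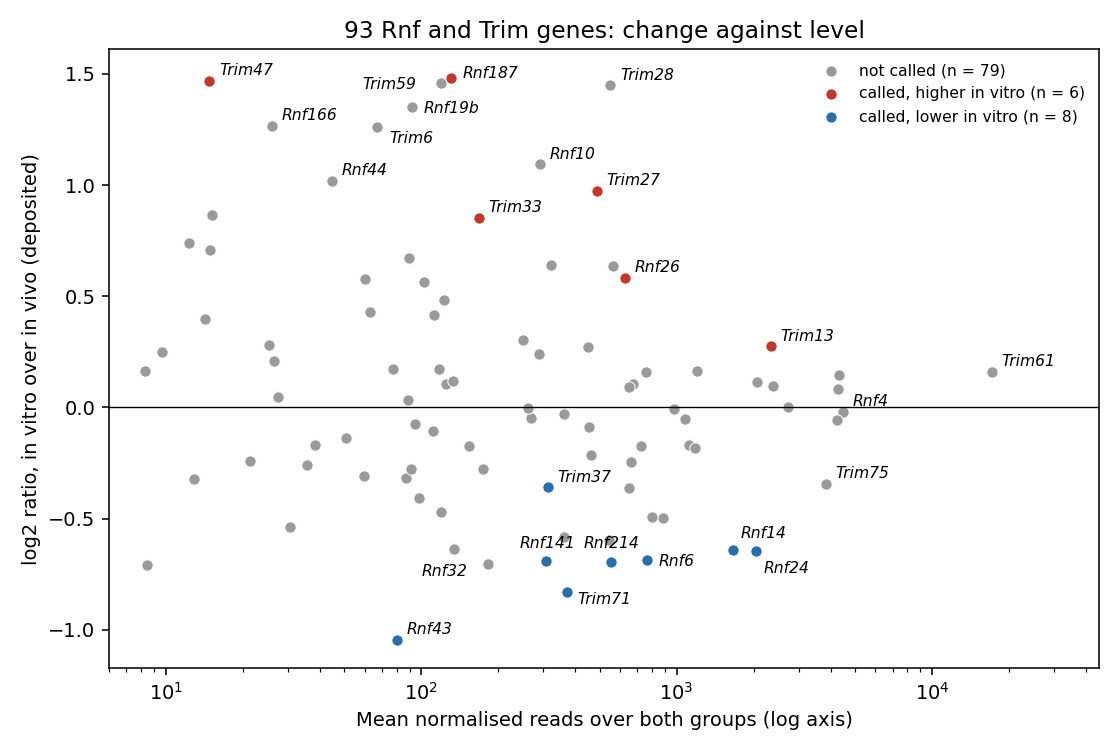
Each point is 1 of the 93 members; the x axis is the mean of normalised reads over both groups on a log axis and the y axis the log2 ratio of in vitro over in vivo in the authors' deposited table. Of the genes called higher (red, 6) and lower (blue, 8), Rnf43 and Trim71 lie below every grey point, and 7 grey genes lie above a 2-fold rise.

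The reads behind each library could be worked out from the group means for many genes, because each library adds a whole number of reads, multiplied by a step of its own, to the mean of its group. This gave 42 members with means up to 200 and, at lower certainty, 58 with means up to 600. The 3 libraries of a group are called A, B and C in order of their step and carry no replicate number. Values below are normalised reads per library, given in that order. On these reads limma voom called 363 of 5803 genes (6.26%) at a Benjamini-Hochberg adjusted p below 0.05 with means up to 200, 3.43% higher and 2.83% lower in vitro. Of the 42 members it called 2 higher and 1 lower, and 11 members (26.2%) had an unadjusted p below 0.05, against 26.1% of all genes. With means up to 600, a limit chosen after seeing the data, limma voom called 9.9% of 8033 genes, 5.24% higher and 4.66% lower, and 4 members higher and 4 lower of 58. In 18 of the 58 members (31.0%) the libraries of the 2 groups did not overlap, 10 of them higher in vitro and 8 lower, against 33.7% of all genes (17.8% higher and 15.9% lower).

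**Figure D2:**
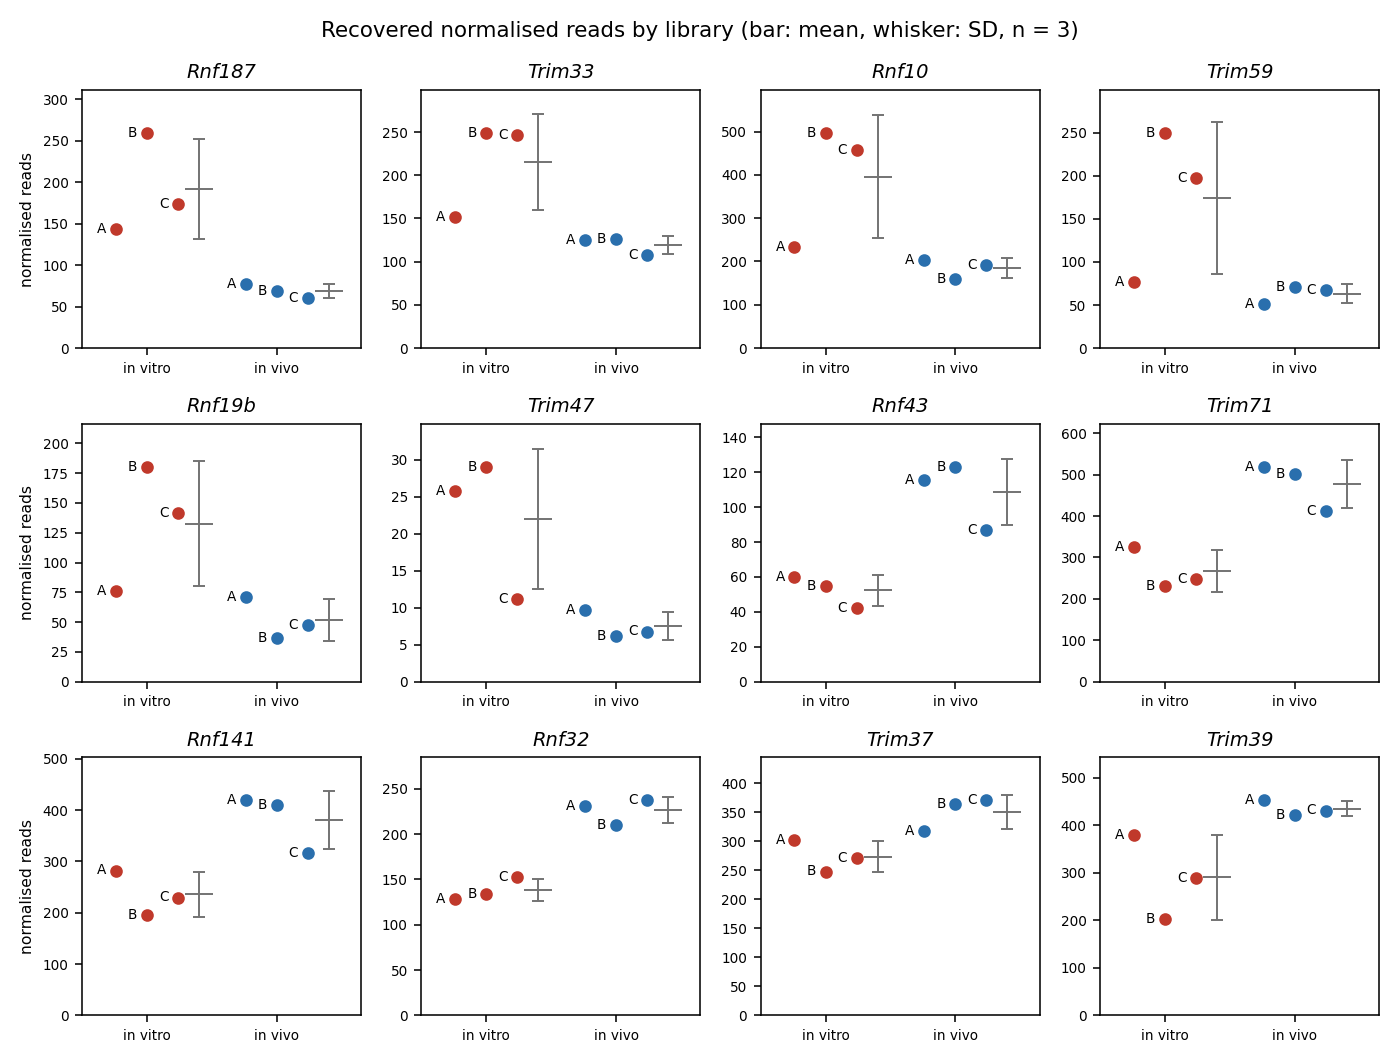
Normalised reads of 12 members in the 3 in vitro (red) and 3 in vivo (blue) libraries A, B and C; the bar beside the points is the mean and the whiskers 1 SD (n = 3). All 12 are among the 18 of 58 recovered members (31.0%) whose groups do not overlap, against 33.7% of all genes. The lack of overlap in the panels thus follows from the choice of genes. In Rnf10, Trim59 and Rnf19b the in vitro library A sits just above the in vivo libraries while B and C are far higher.

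Membrane-bound ligases and those of protein quality control formed the largest named group, with 18 members. They include proteins that sit in the endoplasmic reticulum, the endosome or the cell surface. Of these members 2 rose and 2 fell, with a median log2 ratio of 0.16 in the authors' deposited table. This is 22.2% called, against 15.1% of all genes (6.75% higher and 8.31% lower). The same shares of all genes stand beside the counts of the other role groups below, and no role group was tested against them. Rnf43, which takes Frizzled receptors of Wnt ligands off the cell surface, fell. Its 3 in vitro libraries held 59.7, 54.9 and 42.2 normalised reads and its in vivo libraries 115.6, 123.1 and 86.96. Every in vitro library was below every in vivo library, at a mean of 52.3 ± 9.07 against 108.6 ± 19.1 (SD, n = 3). This is a log2 difference of -1.05 with a standard error of 0.26 by limma voom and an adjusted p of 0.0311. For Rnf43 the authors' deposited table lists a PPEE of 7.75e-07. With 1 library left out at a time, its adjusted p by limma voom ran from 0.0104 to 0.139 and stayed below 0.05 in 2 of 6 fits, those without in vitro library A or in vivo library C.

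Trim59, a membrane-anchored TRIM protein, had a larger ratio with no call. In vitro it held 77.2, 249.8 and 197.3 normalised reads against 50.9, 70.9 and 67.8 in vivo. The groups do not overlap, but in vitro library A lay close to the in vivo libraries. The log2 difference by limma voom was 1.27 with a standard error of 0.38 and an adjusted p of 0.0563, and the authors' deposited table lists a PPEE of 0.272. With 1 library left out at a time, its adjusted p by limma voom ran from 2.86e-05 to 0.190. It was below 0.05 in 1 of 6 fits, the one without in vitro library A. Rnf5, which works in degradation of endoplasmic reticulum proteins, had the tightest libraries of all 58 members. They held 77.2, 76.7 and 79.4 normalised reads in vitro and 99.4, 98.3 and 93.7 in vivo, 1.25-fold lower with no overlap. Limma voom gave Rnf5 an adjusted p of 0.372, and the authors' deposited table lists a PPEE of exactly 1.

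Reads per library could not be recovered in both groups for the other called membrane ligases. Rnf24, a membrane-spanning RING protein, fell 1.57-fold, from 2485 normalised reads in vivo to 1587 in vitro in the authors' deposited table (PPEE 2.27e-10). Rnf26, a ligase of the endoplasmic reticulum that holds endosomes near the nucleus, rose to 751 from 501 (PPEE 0.000143) in the authors' deposited table. Its in vivo libraries held 523.9, 494.2 and 484.5, a narrow spread. Trim13, a TRIM protein of the same membrane, rose 1.21-fold to 2560 from 2117 in the authors' deposited table (PPEE 0.00162), the smallest change among called members.

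The NHL group holds TRIM proteins with a carboxy-terminal NHL propeller, which in some members binds RNA. Trim71, the mammalian relative of the worm protein LIN-41 and a repressor of mRNAs in early embryos and stem cells, fell. It held 325.3, 230.1 and 248.1 normalised reads in vitro and 519.0, 500.4 and 411.1 in vivo. The highest in vitro library was below the lowest in vivo library, and the means were 267.9 ± 50.6 and 476.8 ± 57.7 (SD, n = 3). With means up to 600 the log2 difference by limma voom was -0.84, its standard error 0.17 and its adjusted p 0.0154. Leaving out 1 library at a time moved the adjusted p of Trim71 by limma voom between 0.000693 and 0.0804, below 0.05 in 3 of 6 fits. Its PPEE was 9.35e-07 in the authors' deposited table.

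The other NHL members did not pass the test. Trim32 held 361.2, 236.3 and 338.7 normalised reads in vitro against 291.1, 258.6 and 242.8 in vivo, and the groups overlapped. Trim3 held few reads, 11.0, 30.1 and 17.4 against 20.2, 22.1 and 27.1, and its log2 difference of -0.35 by limma voom turned to 0.045 without in vitro library A.

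Members tied to germ cells by their known roles were Rnf17, Rnf114 and Rnf141. Rnf141, known from spermatogenesis, fell, with 282.1, 195.9 and 229.5 normalised reads in vitro and 418.8, 409.2 and 316.2 in vivo. The groups did not overlap, and with means up to 600 the log2 difference by limma voom was -0.70 with a standard error of 0.19 and an adjusted p of 0.0334. That adjusted p ran from 0.00389 to 0.134 with 1 library left out, below 0.05 in 2 of 6 fits. The PPEE of Rnf141 in the authors' deposited table was 0.00126. Rnf17, a tudor-domain protein of germ cell granules, had 735 normalised reads in vitro and 1037 in vivo, a 1.41-fold lower level that missed the threshold (PPEE 0.0603 in the authors' deposited table). Rnf114, a zinc-finger ligase, had 2139 and 1977 (PPEE 0.959) in the authors' deposited table.

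The TIF1 group comprises Trim24, Trim28 and Trim33, chromatin cofactors that carry a PHD finger and a bromodomain beside the TRIM motif. All 3 had higher means in vitro, and 1 of them was called. Trim33, which acts in TGF-beta signalling with SMAD proteins, rose from 124.5, 125.8 and 107.3 normalised reads in vivo to 151.6, 248.8 and 246.9 in vitro. The groups did not overlap, and library A was again the lowest in vitro. Limma voom with means up to 600 gave a log2 difference of 0.80, a standard error of 0.23 and an adjusted p of 0.0445, which lay between 0.00106 and 0.154 with 1 library left out and below 0.05 in 1 of 6 fits, the one without in vitro library A. The PPEE of Trim33 in the authors' deposited table was 0.0344.

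Trim28, also called KAP1, is the corepressor of KRAB zinc-finger proteins, and its maternal store keeps imprints in the early embryo. Its ratio was the largest among the 3, 2.73-fold, with 804 normalised reads in vitro and 294 in vivo in the authors' deposited table, but its PPEE was 0.159 and it was not called. The in vivo libraries held 297.5, 245.3 and 339.9, and the in vitro reads were not recovered. Trim24 had 686 and 441 normalised reads in the authors' deposited table (PPEE 0.374).

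In the ring-between-ring group, ligases that pass ubiquitin through a cysteine of their own, 1 of 5 members fell in the authors' deposited table and none rose there. Rnf14, an androgen receptor coactivator, fell 1.56-fold from 2022 to 1298 normalised reads (PPEE 6.27e-11), the lowest PPEE of any member in the authors' deposited table. Rnf19b was called by the recovered reads only. It held 76.3, 180.4 and 141.4 normalised reads in vitro and 71.1, 36.3 and 47.4 in vivo. In vitro library A was close to in vivo library A, and the other libraries were well apart. The log2 difference by limma voom was 1.27 with a standard error of 0.34 and an adjusted p of 0.0408, while the authors' deposited table lists a PPEE of 0.1. With 1 library left out, the adjusted p of Rnf19b by limma voom ran from 0.000311 to 0.180 and was below 0.05 only without in vitro library A. Rnf31, the catalytic part of the linear ubiquitin assembly complex, held 73.5, 99.5 and 78.2 normalised reads in vitro against 115.6, 105.4 and 112.9 in vivo; the groups did not overlap, and limma voom gave an adjusted p of 0.240. Rnf19a and Rnf216 differed 1.51-fold and 1.12-fold with no call in the authors' deposited table.

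Signalling, cullin and trafficking ligases numbered 13, with 1 higher and 1 lower. Trim27, which acts with MAGE proteins in endosome recycling, rose 1.97-fold to 645 normalised reads from 328 (PPEE 0.000123) in the authors' deposited table. Trim37, a ligase of peroxisomes and centrosomes, fell 1.28-fold, with 301.4, 247.7 and 270.5 normalised reads in vitro and 316.9, 364.9 and 370.4 in vivo. The groups did not overlap, though the nearest libraries were close, and limma voom with means up to 600 gave an adjusted p of 0.165. The PPEE of Trim37 in the authors' deposited table was 0.0337. Trim39 held 380.5, 202.1 and 289.1 in vitro and 452.8, 421.6 and 431.4 in vivo, with no overlap and an adjusted p of 0.0583 by limma voom with means up to 600.

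None of the 3 Polycomb and histone members and none of the 6 DNA damage and SUMO-targeting members was called. Rnf2, the Polycomb ligase of histone H2A, had 1054 and 1092 normalised reads in vitro and in vivo in the authors' deposited table. Rnf20 and Rnf40, which act as a complex on histone H2B, had 801 and 717, and 678 and 765, in the authors' deposited table. The 6 DNA damage members had a median log2 ratio of 0.01 in the authors' deposited table. Among them Rnf111, or Arkadia, held 223.3, 494.4 and 455.3 normalised reads in vitro and 274.1, 205.5 and 272.2 in vivo. Libraries B and C lay above the in vivo range and A within it. Rnf168, which extends the ubiquitin marks laid by Rnf8, held 472.4, 441.6 and 405.7 against 470.5, 437.5 and 493.5, with the groups overlapping.

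None of the 8 antiviral and innate immune members was called. Trim6, which makes unanchored ubiquitin chains in the interferon response, had 133.3, 50.8 and 101.7 normalised reads in vitro against 56.6, 34.5 and 27.1 in vivo. The groups overlapped, because in vitro library B lay below in vivo library A, and limma voom gave an adjusted p of 0.0638. Trim6, Trim12c, Trim30a and Trim30d belong to a run of 10 Trim genes on chromosome 7 in RefSeq, whose similar sequences may have shared reads. Trim12c, Trim30a and Trim30d had between 9.06 and 66.3 normalised reads in the authors' deposited table. Trim36, the only member placed as a cytoskeletal TRIM, had 125 and 111 (PPEE 0.937) in the authors' deposited table.

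**Figure D3:**
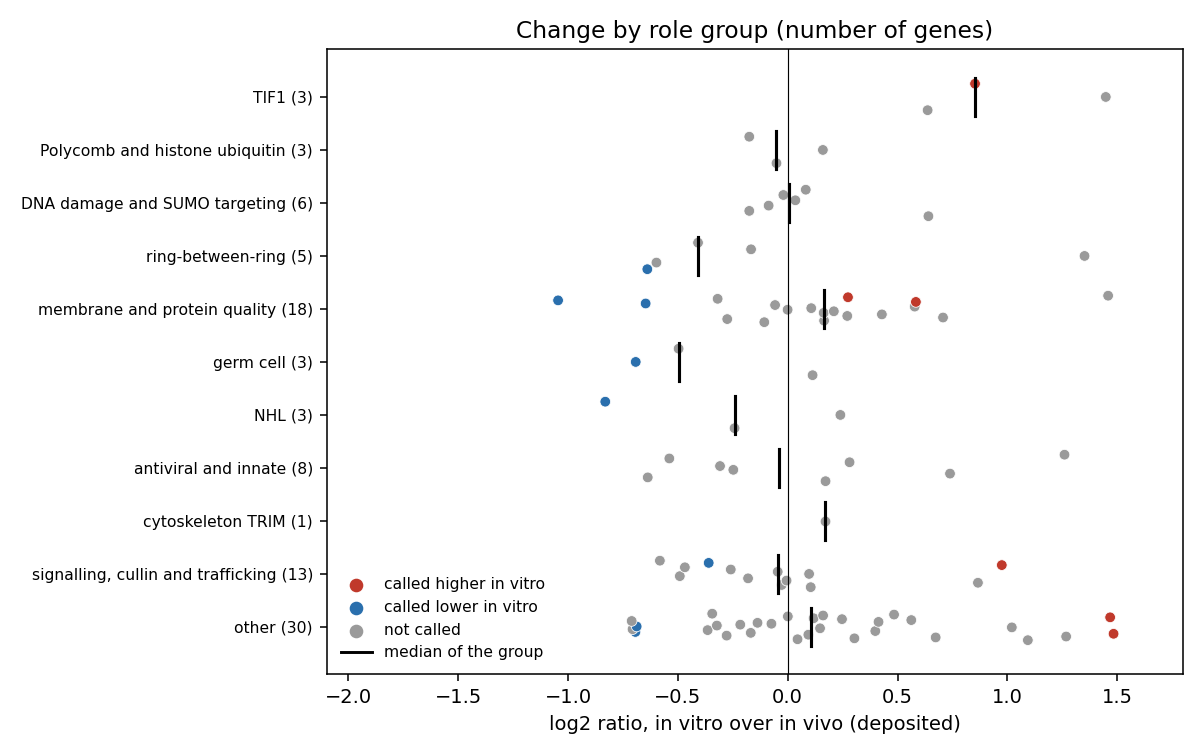
Log2 ratio of in vitro over in vivo in the authors' deposited table for each member, by role group with its number of genes; red and blue points were called higher and lower and the bar is the group's median. The TIF1 genes all lie above 0, and the 6 DNA damage genes have a median of 0.01.

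The remaining 30 members were placed in no role group, and 2 of them rose and 2 fell. Rnf187, a RING coactivator of AP-1, rose with no overlap of the groups. It held 143.4, 259.1 and 173.7 normalised reads in vitro against 76.8, 68.2 and 59.9 in vivo, or 192.1 ± 60.04 against 68.3 ± 8.47 (SD, n = 3). Its log2 difference by limma voom was 1.43 with a standard error of 0.26 and an adjusted p of 0.00851, and the authors' deposited table lists a PPEE of 0.000421. With 1 library left out, its adjusted p by limma voom ran from 0.000101 to 0.0508, below 0.05 in all fits but the one without in vivo library A; with means up to 600 it was below 0.05 in 4 of 6 fits. Rnf187 lies next to Trim17 and Trim11 on chromosome 11, and Trim11 had 428 and 497 normalised reads in vitro and in vivo (PPEE 0.963) in the authors' deposited table.

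Trim47 had few reads, 28, 28 and 9 in the in vitro libraries and 12, 7 and 6 in the in vivo libraries. As normalised reads these are 25.7, 29.0 and 11.2 against 9.70, 6.20 and 6.78, so the groups are apart but in vitro library C is near them. Limma voom gave a log2 difference of 1.43 with a standard error of 0.54 and an adjusted p of 0.111, whereas the authors' deposited table lists a PPEE of 0.0163. Rnf214 fell 1.62-fold to 421 from 680 normalised reads (PPEE 0.000893) in the authors' deposited table. Rnf6, a ligase of LIM kinase and the androgen receptor, fell 1.61-fold to 587 from 946 (PPEE 1.19e-05) in the authors' deposited table.

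The call from the deposited table and the separation of the libraries parted for several members. Rnf32 held 128.7, 133.7 and 152.6 normalised reads in vitro and 231.2, 209.9 and 237.2 in vivo. Every library of one group was far from every library of the other, and limma voom with means up to 600 gave a log2 difference of -0.71, a standard error of 0.18 and an adjusted p of 0.0311. The authors' deposited table lists its PPEE as 1.00 after rounding. With 1 library left out the adjusted p of Rnf32 ran from 0.0229 to 0.108, below 0.05 in 1 of 6 fits. Rnf10, which tags ribosomal proteins of stalled ribosomes, held 232.5, 496.5 and 457.8 normalised reads in vitro and 202.9, 160.3 and 192.0 in vivo. Its libraries did not overlap, the log2 difference by limma voom with means up to 600 was 1.00 with a standard error of 0.26, and the adjusted p was 0.0334, while the authors' deposited table lists a PPEE of 0.199. Without in vitro library A the adjusted p of Rnf10 was 6.79e-05, and it stayed below 0.05 in that fit only. In all, 8 of the 93 members had a PPEE of exactly 1, as did 1627 of the 10896 genes of the authors' deposited table.

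At least a 2-fold difference of the means was found in 10 members, 9 higher and 1 lower, against 11.1% of all genes, 6.55% higher and 4.53% lower. Of these, 7 members had no call: Trim28, Trim59, Rnf19b, Rnf166, Trim6, Rnf10 and Rnf44, each higher in vitro. The 7 are 7.53% of the members. Over all genes 6.59% differed at least 2-fold without a call, 462 higher and 256 lower in vitro, a share near that of the members. Rnf166 held 18.4, 58.05 and 34.7 normalised reads in vitro and 16.2, 9.74 and 19.2 in vivo, and its groups overlapped. Rnf44 held 37.7, 77.7 and 64.5 against 29.1, 24.8 and 33.9, with no overlap and an adjusted p of 0.0933 by limma voom.

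In vitro library A stood nearest to the in vivo mean for many of these genes. Among recovered members that differed at least 1.5-fold, library A was the nearest of the 3 in vitro libraries in 10 of 14 higher and 4 of 6 lower members. The same held for 71.8% of 1508 higher and 59.1% of 1118 lower genes of the table, shares near those of the members. Without in vitro library A, limma voom with means up to 600 called 9 members higher (15.5%) and 6 lower (10.3%), against 15.0% and 9.74% of all genes. Without in vivo library A it called no member and 0.261% of all genes higher and 0.473% lower; without in vivo library B it called no member, and 0.324% and 0.685% of all genes. In these fits 25.9% and 22.4% of members had an unadjusted p below 0.05, against 23.3% and 21.1% of all genes. The median coefficient of variation of the 58 members was 27.3% over the in vitro and 16.8% over the in vivo libraries, against 22.7% and 17.2% for all genes.

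**Figure D4:**
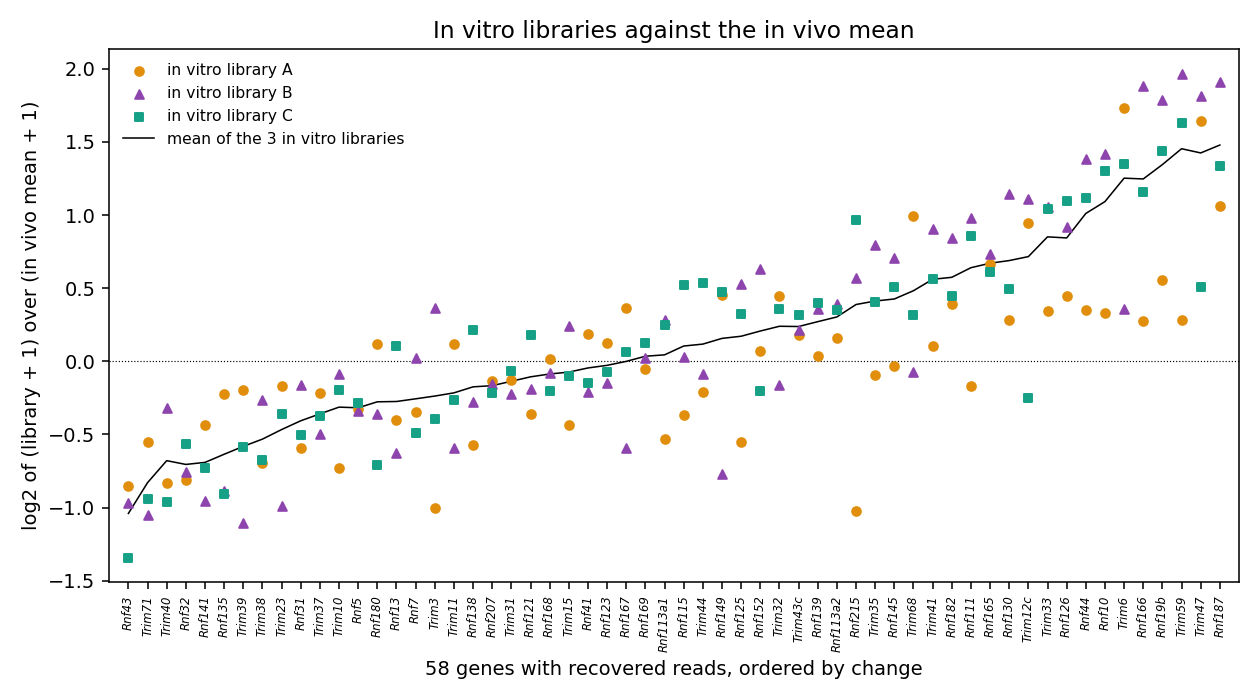
For the 58 members with recovered reads, ordered by change, the log2 of each in vitro library over the in vivo mean, with 1 added to both; the line is the mean of the 3 in vitro libraries. At the right-hand end library A (circles) mostly lies below B (triangles) and C (squares), nearer to 0.

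Base composition was read from the GENCODE transcript of each gene closest to the deposited length, and its medians differed among the small groups of calls. The median GC content was 54.8% in the 6 members called higher, 46.6% in the 8 called lower and 49.9% in those not called. Across the 93 members the Spearman correlation of the log2 ratio with GC was 0.16, against 0.06 over all genes. With the mean over both groups it was -0.22 in members and -0.06 over all genes. The part of GC or level in the calls was not tested.

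Other enzymes of the ubiquitin system were read from 3 lists. The PPEE rule called 16.7% of ubiquitin genes and E1 enzymes, 13.0% of other RING ligases and 16.7% of HECT ligases. Over all genes it called 15.1%, 6.75% higher and 8.31% lower in vitro, so the share called in each list was near the background. Of 6 ubiquitin genes and E1 enzymes, 1 fell and none rose: Uba1, the main activating enzyme, had 2135 normalised reads in vitro and 2522 in vivo (PPEE 0.000662) in the authors' deposited table. Among 77 other RING ligases 1 rose and 9 fell. Mkrn1, a makorin RING protein, rose 2.93-fold to 120 from 41.1 in the authors' deposited table. Birc2, an inhibitor of apoptosis, fell 2.02-fold to 36.4 from 73.8, Brca1, of DNA repair, 2.01-fold to 361 from 728, and Ltn1, of ribosome quality control, 1.71-fold to 130 from 222 in the authors' deposited table. Of 24 HECT ligases, which first take ubiquitin onto themselves, none rose and 4 fell, with Nedd4 1.83-fold lower at 172 against 315, Hace1 1.56-fold and Herc1 1.54-fold lower in the authors' deposited table. No test set these lists against the Rnf and Trim genes or against all genes, and their split into higher and lower was not tested.

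The label of the tissue was checked against marker genes. All 12 oocyte markers were measured, among them Gdf9 with 37810 normalised reads in vitro and 43120 in vivo in the authors' deposited table. The 12 summed to 136233 in vitro and 170629 in vivo, and 2 of them, Bmp15 and Kit, fell. Dazl, Oosp1, H1foo and Figla were higher in vitro without a call, and the rest were lower without a call. Of 12 granulosa and cumulus markers 7 were measured, between 10.2 and 157 normalised reads in vitro and between 2.45 and 110.2 in vivo in the authors' deposited table. Their sum was 394 in vitro against 287 in vivo, and 2 of them, Inha and Fshr, rose. Fshr had few reads, 12.4 against 2.45. Cyp19a1 and Ptgs2 were higher in vitro without a call, and Kitl, Gja1 and Nr5a2 were lower without a call. None of 9 theca and stroma markers was measured. Of 8 blood and macrophage markers only Cd68 was, at 14.1 in vitro and 10.8 in vivo. The 3 measured endothelial markers summed to 631 and 1016, most of it Pecam1, and 2 of them, Pecam1 and Tek, fell in the authors' deposited table. The part of other ovarian cells in the differences of the members was not tested.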

How the data were processed

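SMARTer cDNA libraries of 3 in vitro and 3 in vivo pools were sequenced; BWA and the build mm9 are named, without versions, per the submitters' processing notes. The authors deposited a table with for each gene the signal of both groups, averaged normalised reads, and a log2 ratio whose sign was turned here so that positive values are higher in vitro. The deposited log2 ratio was recomputed from the means with 0.599 added. The tool behind PPEE and the counting method are not given in the sources used here, so strand and shared reads of similar genes are unknown. Of the gene symbols 16 had become dates and were restored from their identifiers.

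Reads per library were recovered from the group means by finding the 3 steps of each group. In means up to 200, 95.1% in vitro and 95.4% in vivo had a single whole solution. Shifted values gave one in 1.06% and 1.31%. From 200 to 600 these shares were 18.7% and 30.1%, so reads there are less certain. Within that range, at means from 400 to 600, the shares were 28.9% in vitro and 49.1% in vivo. Genes recovered in both groups were tested with limma 3.58.1 (voom, R 4.3.3), 2-sided, with size factors from the steps. The recovered reads over 5803 genes came to between 288714 and 431622 per library; the full depth is not known. On simulated data for this comparison with means up to 200, 51% of 2-fold and 100% of 4-fold changes were found, and 2.58% of calls were unchanged genes; with means up to 600 these were 67%, 99% and 6.21%. The simulated reads had the same spread in both groups and no error of recovery. In the data the median coefficient of variation was 22.7% in vitro and 17.2% in vivo over all genes with means up to 600. The simulated rates may therefore not hold for the calls made here. The planned edgeR test was meant for deposited counts, which the table does not hold. Alternatives were other thresholds, pseudocounts, library sizes, limma trend, filters and leaving out each library.

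The members, role groups, marker and enzyme lists were chosen with earlier results of these data known. Named were all called members, the 6 uncalled ones with the largest ratios, the 6 with the highest means (1 is not reported here), the TIF1, NHL, Polycomb and germ cell members, and the 3 most changed called genes per direction of each enzyme list; Rnf5, Rnf31, Rnf32, Rnf44, Rnf111, Rnf168, Trim11, Trim12c, Trim30a, Trim30d, Trim36, Trim39, Trim60, Rnf19a and Rnf216 were added after their values were seen.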

Additional observations from a re-analysis of the deposited data

How the results depend on the processing

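The counts of members called in the authors' deposited table stayed within 1.5 times of 6 higher and 8 lower under a PPEE below 0.01, a minimum of 1.5-fold, a minimum mean of 10 and without genes at a PPEE of exactly 1. The median log2 ratio of members lay between -0.01 and 0.03 over its 5 alternatives. Calls from recovered reads by limma voom, 2 higher and 1 lower, depended on the setting. Limma trend called 4 higher (9.52%, against 5.34% of all genes). With limma voom, means up to 100 called 0 higher and 0 lower, against 1.73% and 1.45% of all genes (5 of 26 members, 19.2%, at an unadjusted p below 0.05, against 23.5% of all genes), and means up to 600, chosen after seeing the data, called 4 higher and 4 lower. With each library left out in turn the count ran from 0 to 6 higher and from 0 to 2 lower; the most were called without in vitro library A. Over all 5803 genes these fits called between 9 and 710 genes higher and between 13 and 320 lower, against 199 and 164 with all libraries. For 15 single members, 126 alternatives were run. A call was lost in 32 of them, all from members called with all libraries: Rnf187, Rnf43, Rnf19b, Trim33, Trim71, Rnf141, Rnf10 and Rnf32. Direction and side of the threshold were kept in 88, but many of these belong to members with no call to lose. The 88 also include the filter of at least 10 recovered reads, which could change nothing. A call was gained in 5, and 1 reversed. The log2 difference of Trim3 was -0.35 with all libraries. It ran from -0.74 without in vitro library B to 0.045 without in vitro library A. A filter of at least 10 recovered reads removed no gene. No paired analysis was possible because the recovered libraries carry no replicate number. The restriction to members with a RING in their RefSeq protein was not run, since no protein sequences were used here.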
